A study of Mus musculus with 26 samples.

Results

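The peaks and genes of mouse chromosomes 5, 9 and 18 were described in mouse embryonic fibroblasts (MEFs) with intact or altered ATRX. The 16 CUT&RUN peak lists held 43220 peaks on these chromosomes out of 272147 in all, with 19384 on chromosome 5, 16237 on chromosome 9 and 7599 on chromosome 18. The RNA-Seq tables held 6996 genes there out of 53801, namely 3247 on chromosome 5, 2853 on chromosome 9 and 896 on chromosome 18, by the GENCODE M21 annotation of GRCm38 (mm10). For chromosome 18 the annotation has 1399 genes, and those without a row in the tables were not analysed here. The 3 chromosomes were chosen by the share of peaks on each chromosome and the median expression ratio to WT, with results of these data known, so these 2 measures are given as a description and without a test.

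CUT&RUN releases DNA next to an antibody-bound protein with a tethered nuclease. There were ATRX lists for WT and ATRXΔRBR, whereas lists for EZH2 and for H3K27me3, and RNA-Seq libraries, also covered ATRX KD. Each group had 2 libraries, and the labels do not say whether these came from separate cultures, so that p-values measure only the spread between these samples. All cells came from a WT parental MEF line. ATRXΔRBR MEFs carried a CRISPR/Cas9 deletion of the RNA binding region (RBR) in the endogenous Atrx gene and were picked as a clone after transfection with a puromycin-resistance plasmid. ATRX KD MEFs expressed an shRNA against ATRX and were selected with puromycin. The IgG libraries were not analysed here, and the study's documents do not name a single antibody for H3K27me3.

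ATRX is an X-linked chromatin remodeler of the SWI/SNF family that also binds RNA. EZH2 is the catalytic subunit of polycomb repressive complex 2 (PRC2), which trimethylates histone H3 at lysine 27 (H3K27me3) over developmental genes that are kept silent. In fibroblasts these marks cover promoters of genes of other lineages and long stretches between genes.

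Some facts of the whole series bear on what follows. The RNA-Seq libraries held between 9051693 and 21723647 estimated counts. Of 10 fibroblast markers, 6 reached at least 1 TPM (RSEM's length-scaled level) in all 6 libraries, whereas Thy1 was at 0 in all of them, Lum was at 0 in 5 and Dcn was at 0 in both ATRX KD libraries. Col3a1, another fibroblast marker, stood at 28.1 and 32.2 TPM in WT, 20.3 and 15.8 in ATRXΔRBR, against 0.360 and 0.750 in ATRX KD (log2 fold change −6.99, edgeR adjusted p = 2.4e-05). The marker lists of epithelial, endothelial, blood, pluripotent and muscle cells each summed to at most 5.38 TPM in any library. Sox2, a neural marker, stood at 43.9 and 37.1 TPM in WT, 18.7 and 17.5 in ATRXΔRBR, against 1.10 and 0.550 in ATRX KD. The other neural markers, Nes and Tubb3, did not show such a fall. Nes stood at 45.5 and 37.8 TPM in WT, 55.6 and 46.7 in ATRXΔRBR, against 37.0 and 39.6 in ATRX KD. The log2 fold change of Tubb3 was 0.65 in ATRXΔRBR (edgeR adjusted p = 0.29) and −0.49 in ATRX KD (edgeR adjusted p = 0.37). The part of these markers in the results was not tested. Atrx RNA was at 233 and 141 TPM in WT, 175 and 124 in ATRXΔRBR, against 331 and 512 in the libraries labelled ATRX KD. In the fit of counts, its log2 fold change in ATRX KD was −0.15 (edgeR adjusted p = 0.60), so the direction differed between TPM and counts and a lower level was not detected. The raw file names of the ATRX KD libraries have another form and name no sequencing run, whereas those of WT and ATRXΔRBR name the same run. The run of the ATRX KD libraries is therefore unknown. Differences between ATRX KD and WT cannot be told apart from possible differences between runs.

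Of the ATRX peaks of WT replicate 1, 119 of 689 on chromosome 5 and 75 of 499 on chromosome 9 were overlapped by a peak in all 4 ATRX lists. The strongest of these by fold enrichment on chromosomes 5 and 9 are shown, because they are the ATRX sites that every ATRX list shared and they differ in base composition and in the marks around them. The 200 bases at the midpoint of each peak are printed from GRCm38, plus strand, 5′ to 3′, with CpG dinucleotides in capitals.
Chromosome 5 site, chr5:32035895-32036094: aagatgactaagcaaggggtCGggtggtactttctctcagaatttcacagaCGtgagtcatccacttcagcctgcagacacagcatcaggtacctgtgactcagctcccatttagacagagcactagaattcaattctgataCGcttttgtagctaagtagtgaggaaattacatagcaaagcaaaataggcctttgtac
Chromosome 9 site, chr9:4309567-4309766: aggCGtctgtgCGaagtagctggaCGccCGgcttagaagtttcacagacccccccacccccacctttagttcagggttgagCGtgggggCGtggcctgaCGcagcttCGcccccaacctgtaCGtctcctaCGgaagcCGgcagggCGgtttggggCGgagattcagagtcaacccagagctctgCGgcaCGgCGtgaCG

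The chromosome 5 site lies in an intron of Babam2 within a peak of 421 bp, from 32035785 to 32036205. The stretch shown has 44.0% GC and 3 CpG dinucleotides, and the nearest transcription start site (TSS), that of Gm17130, is 25132 bp away. Its fold enrichment over the local background was 6.92 and 5.59 in the WT lists and 6.58 and 5.41 in the ATRXΔRBR lists. An EZH2 peak overlapped it in replicate 1 of WT and of ATRXΔRBR only, and no H3K27me3 list had a peak there. The chromosome 9 site lies between the divergent genes Aasdhppt and Kbtbd3 within a peak of 580 bp, from 4309377 to 4309956, and the stretch shown holds no exon. It has 64.5% GC and 17 CpG dinucleotides, and its midpoint is 166 bp from the TSS of Kbtbd3. Its fold enrichment was 7.59 and 6.78 in WT and 4.43 and 6.10 in ATRXΔRBR. An EZH2 peak overlapped it in all 6 EZH2 lists, and an H3K27me3 peak in none. The chromosome 9 site thus had EZH2 without the mark that EZH2 makes, which was also the commonest state of expressed genes on these chromosomes in WT.

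Genes of chromosomes 5, 9 and 18 had lower RNA levels in ATRXΔRBR than in WT on average, and chromosome 5 also in the libraries labelled ATRX KD. The ratio of each gene was taken as log2 of its CPM (counts scaled to library size with TMM factors, plus 0.5) over the WT mean, for genes with a mean of at least 1 CPM over the 6 libraries. In bulk samples, fewer cells of a type and less RNA per cell cannot be told apart. On chromosome 5, the median ratio of 860 genes was −0.23 and −0.21 in the ATRXΔRBR libraries and −0.30 and −0.27 in the ATRX KD libraries. On chromosome 9, the median of 727 genes was −0.22 and −0.25 in ATRXΔRBR, against −0.00 and 0.02 in ATRX KD. On chromosome 18, the median of 323 genes was −0.19 and −0.29 in ATRXΔRBR, against 0.09 and 0.07 in ATRX KD. All 6 ATRXΔRBR values lay below the median of all 12734 genes, −0.03, whereas chromosome 5 alone of the 3 had both ATRX KD values below the median of all genes for that comparison, −0.02. The medians correspond to 0.857, 0.855 and 0.834 times the WT level in ATRXΔRBR for chromosomes 5, 9 and 18.

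The WT libraries themselves differed by 0.00 on chromosome 5, −0.04 on chromosome 9 and −0.05 on chromosome 18 (median log2 difference, replicate 1 minus replicate 2). Among 20 chromosomes, chromosome 18 had the lowest median in ATRXΔRBR, chromosome 9 the second lowest and chromosome 5 the third lowest. The other chromosomes lay between −0.10, chromosome 10, and 0.30, chromosome 1. In ATRX KD, the 3 chromosomes did not stand together: chromosome 5 was the third lowest, and chromosomes 9 and 18 were at positions 13 and 14 from the lowest. Other chromosomes reached lower and higher in ATRX KD, from −0.43 on chromosome 15 to 0.30 on chromosome 14. Both comparisons use the same WT libraries.

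**Figure D1:**
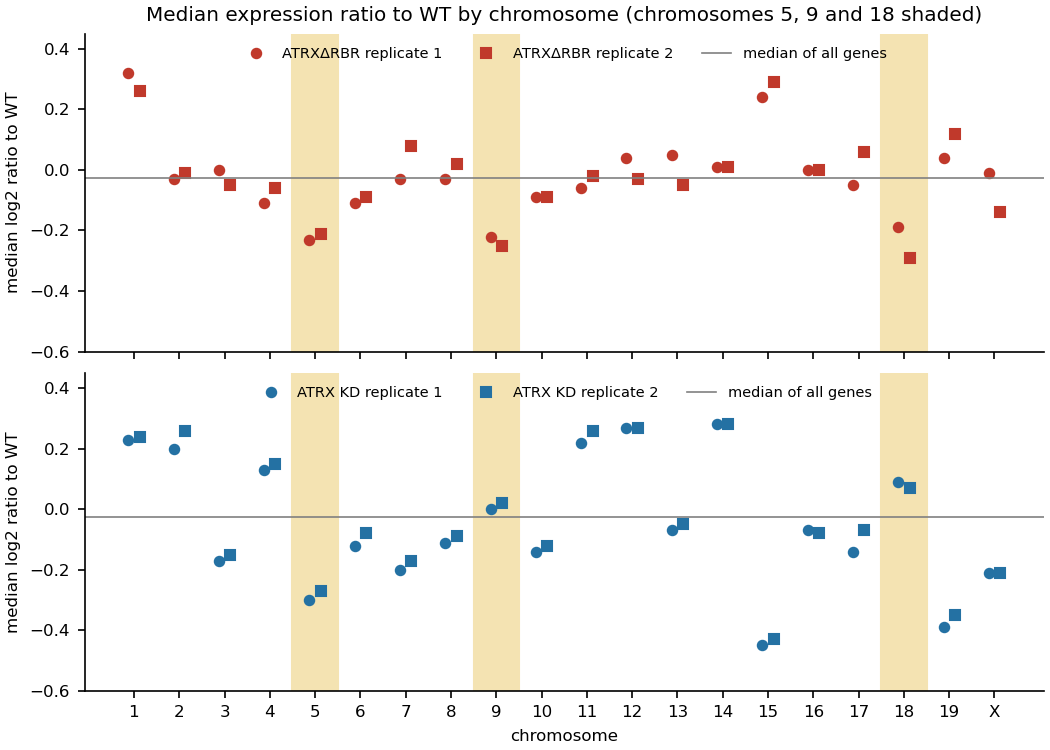
Median log2 expression ratio to the WT mean (y axis) of the genes of each chromosome (x axis), with circles for replicate 1 and squares for replicate 2 and a line at the median of all genes. In ATRXΔRBR (top), the shaded chromosomes 5, 9 and 18 lie between −0.19 and −0.29. In ATRX KD (bottom), chromosome 5 lies at −0.30 and −0.27 and the other shaded chromosomes between −0.00 and 0.09.

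The share of all counts comes from the same libraries and is not separate support. It was lower than in WT on each of these chromosomes in ATRXΔRBR. In ATRX KD it was lower on chromosome 5 and higher on chromosomes 9 and 18, although the median ratio of chromosome 9 was near that of WT. Genes of chromosome 5 took 7.68% and 7.5% of counts in WT, 6.48% and 6.68% in ATRXΔRBR, against 6.14% and 6.23% in ATRX KD. For chromosome 9 these shares were 5.76% and 5.96% in WT, 5.10% and 5.01% in ATRXΔRBR, against 6.08% in both ATRX KD libraries. For chromosome 18 they were 2.51% and 2.63% in WT, 2.24% and 2.14% in ATRXΔRBR, against 2.80% and 2.74% in ATRX KD. The groups did not overlap in any of these comparisons, but how often this held on the other chromosomes was not counted. Moreover, 2 libraries against 2 cannot give an exact permutation p (two-sided) below 0.333.

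Single genes followed the chromosome median in unequal measure. Their values are those behind the choice of chromosomes, so the shares below only describe it. In ATRXΔRBR, both libraries lay below both WT libraries for 372 genes (43.3%) of chromosome 5, 346 (47.6%) of chromosome 9 and 155 (48.0%) of chromosome 18, beside 26.8% of all genes. Both lay above for 106 (12.3%), 69 (9.49%) and 40 (12.4%), beside 24.3%. In ATRX KD, genes below both WT libraries were 56.0% of chromosome 5, 37.0% of chromosome 9 and 28.8% of chromosome 18, beside 38.1% of all genes. Genes above both were 20.1%, 38.5% and 42.1%, beside 36.5%. The middle 50% of genes in ATRXΔRBR lay between −0.44 and 0.01 on chromosome 5, −0.45 and −0.01 on chromosome 9 and −0.46 and −0.02 on chromosome 18.

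Lower levels in ATRXΔRBR were found in most bins along each chromosome that held enough genes for a median. The bins divide the ratios by which the chromosomes were chosen, so they are a description and not separate support. In fixed bins of 5 Mb, 24 of 31 on chromosome 5, 23 of 25 on chromosome 9 and 14 of 19 on chromosome 18 had at least 10 genes. Among these, both ATRXΔRBR libraries had a median below that of all genes in 23 of 24 bins of chromosome 5, 21 of 23 of chromosome 9 and 14 of 14 of chromosome 18. On the other chromosomes this held for 108 of 343 bins (31.5%). Bins that were lower by at least 0.2 in both libraries numbered 7, 9 and 5, and 20 of 343 (5.83%) elsewhere. No bin of the 3 chromosomes had both ATRXΔRBR libraries above the median of all genes. In ATRX KD, both libraries lay below in 22 of 24 bins of chromosome 5, 11 of 23 of chromosome 9 and 1 of 14 of chromosome 18, against 157 of 343 (45.8%) elsewhere. Chromosome 9 had 10 of 23 bins with both ATRX KD libraries above, and chromosome 18 had 10 of 14. For either genotype, how often both libraries lay above on the other chromosomes was not counted.

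**Figure D2:**
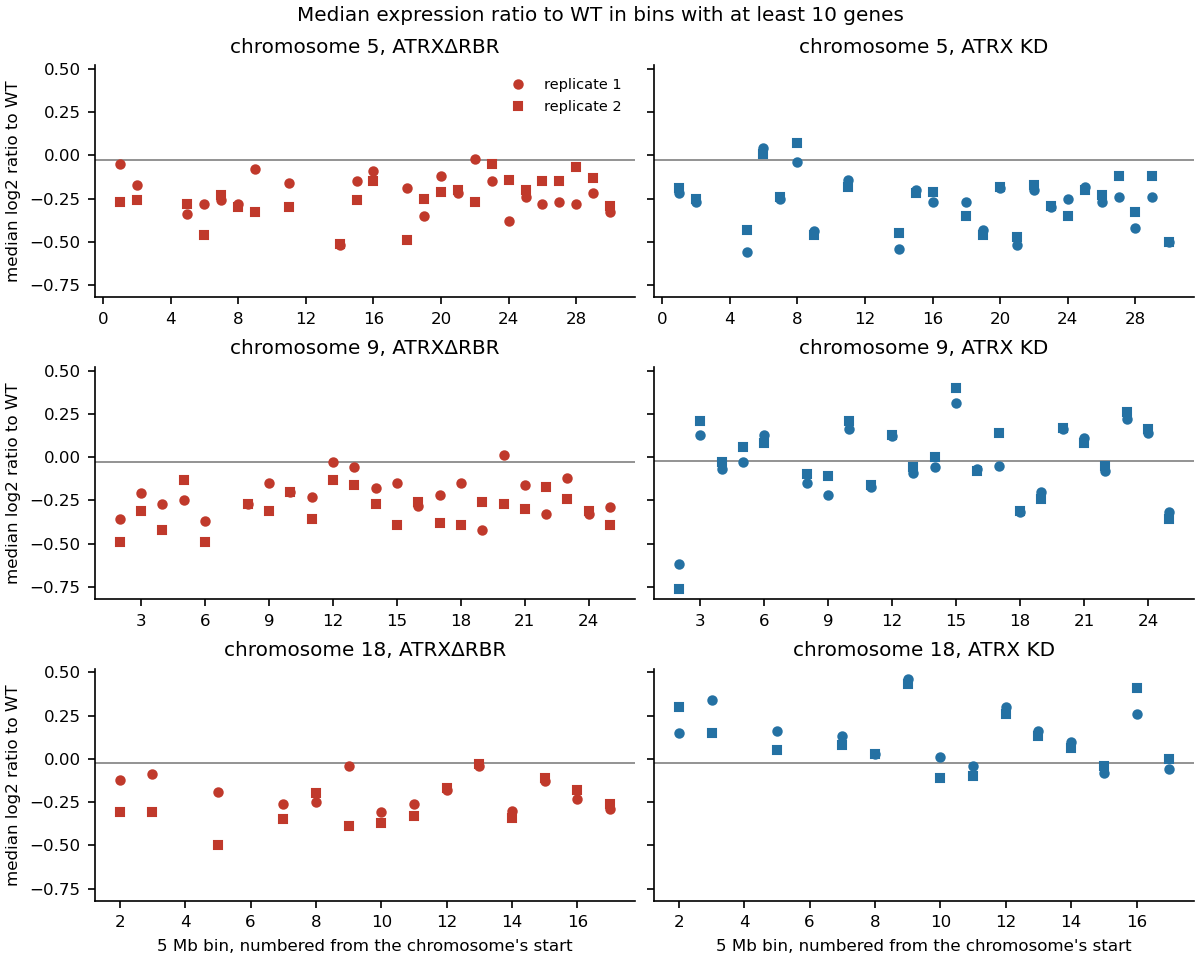
Median log2 ratio to WT (y axis) of each 5 Mb bin with at least 10 genes, numbered from the start of the chromosome (x axis), for chromosomes 5, 9 and 18 (rows) in ATRXΔRBR (left) and ATRX KD (right), with 1 marker per library and a line at the median of all genes. In ATRXΔRBR nearly every bin lies below the line (23 of 24, 21 of 23 and 14 of 14 in both libraries), whereas ATRX KD has bins on both sides of it on chromosomes 9 and 18.

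Bins are ordered here by the median of each gene's mean over both libraries of a genotype, and single libraries can order them otherwise. On chromosome 5, the lowest bin in ATRXΔRBR was that from 65 to 70 Mb, with 25 genes led in WT by Uchl1, a ubiquitin hydrolase, Ube2k and Ugdh. Its median was −0.52 and −0.51 in the ATRXΔRBR libraries and −0.54 and −0.45 in ATRX KD, while the WT libraries differed by −0.03. The bin from 145 to 150 Mb, led by Atp5j2, Pomp and Pdap1, stood at −0.33 and −0.29 in ATRXΔRBR, against −0.50 in both ATRX KD libraries. The highest bin of chromosome 5 in ATRXΔRBR, from 70 to 75 Mb, had −0.08 by that measure and −0.15 and −0.26 in the libraries, with Ociad1, Commd8 and Fip1l1 as its leading genes. In ATRX KD, the lowest was from 40 to 45 Mb, with −0.54 by that measure and −0.44 and −0.46 in the libraries, over 10 genes led by Rab28, and the bin from 35 to 40 Mb, led by Wdr1, Mrfap1 and Lyar, had −0.04 and 0.07. That last bin was among the lower ones in ATRXΔRBR, with −0.28 and −0.30.

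On chromosome 9, the bin from 5 to 10 Mb was the lowest in both comparisons. Its 14 genes, led by Dcun1d5, Yap1, the transcriptional effector of Hippo signalling, and Tmem123, had medians of −0.36 and −0.49 in ATRXΔRBR, against −0.62 and −0.76 in ATRX KD, but the WT libraries differed there by −0.38, more than in any other bin of the chromosome. The bin from 120 to 125 Mb, led by Ctnnb1, which encodes β-catenin, had −0.29 and −0.39 in ATRXΔRBR, against −0.32 and −0.36 in ATRX KD, with a WT difference of 0.12. The comparisons parted in the bin from 70 to 75 Mb, led by the ubiquitin ligase Nedd4, where the ATRXΔRBR libraries had −0.15 and −0.39 and the ATRX KD libraries 0.31 and 0.40. The bin from 110 to 115 Mb, led by Pdcd6ip and Map4, had −0.12 and −0.24 in ATRXΔRBR, against 0.22 and 0.26 in ATRX KD.

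On chromosome 18, the lowest bin in ATRXΔRBR, from 20 to 25 Mb, was led by Elp2, Slc39a6 and Galnt1 and had −0.19 and −0.50, with −0.40 over the mean and a WT difference of −0.31. The bin from 45 to 50 Mb, led by Eif1a, Tmed7 and Atg12, had −0.31 and −0.37 with a WT difference of −0.09. The bin from 60 to 65 Mb was the highest, with −0.04 and −0.03, and Rps14 and Nars among its genes. In ATRX KD the highest bin, from 40 to 45 Mb, had 0.46 and 0.43 over 12 genes led by Lars, a leucyl-tRNA synthetase, where ATRXΔRBR had −0.04 and −0.39. The bin from 55 to 60 Mb, led by Lmnb1, which encodes lamin B1, had 0.30 and 0.26 in ATRX KD and −0.18 and −0.17 in ATRXΔRBR.

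The lower ratios in ATRXΔRBR were seen at every level of expression. The chromosomes were chosen by these ratios, so the split only describes them and is not separate support. Genes were divided into low, middle and high expression by their mean CPM at 16.7 and 65.1. The medians in ATRXΔRBR were −0.19, −0.18 and −0.26 on chromosome 5, −0.22, −0.20 and −0.25 on chromosome 9, and −0.16, −0.29 and −0.27 on chromosome 18. On the other chromosomes they were 0.02, 0.03 and −0.01.

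The ratios also differed with the state of the promoter in WT. A gene was assigned to the H3K27me3 class when both WT lists had an H3K27me3 peak within 2 kb of its TSS. Expressed genes with EZH2 but without H3K27me3 were the most numerous class and followed the chromosome median, at −0.23 and −0.22 over 573 genes of chromosome 5, −0.22 and −0.25 over 478 of chromosome 9 and −0.17 and −0.26 over 183 of chromosome 18. Genes with neither mark had −0.10 and −0.14 over 162 genes of chromosome 5, −0.12 and −0.19 over 123 of chromosome 9 and −0.19 and −0.22 over 79 of chromosome 18. Genes in the H3K27me3 class had lower medians in ATRXΔRBR, with −0.34 and −0.32 over 55 genes of chromosome 5, −0.60 and −0.62 over 36 of chromosome 9 and −0.50 and −0.50 over 23 of chromosome 18. The same class on the other chromosomes had −0.20 and −0.15 over 541 genes, beside 0.01 and 0.02 for EZH2 without H3K27me3 and 0.03 in both libraries for neither. In ATRX KD, the H3K27me3 class had −0.10 and −0.03 on chromosome 5, 0.18 and 0.19 on chromosome 9 and −0.34 and −0.24 on chromosome 18.

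The share of H3K27me3 peaks on chromosome 5 was lower than in WT in both altered genotypes. Peaks were called separately in each library and the read depth is unknown, so each list's peaks on a chromosome are given as a share of its peaks on the assembled chromosomes. Chromosome 5 held 7.96% and 7.85% of H3K27me3 peaks in WT, 5.78% and 5.84% in ATRXΔRBR, against 5.28% and 5.87% in ATRX KD. The mean share was 0.734 times that of WT in ATRXΔRBR, against 0.705 times in ATRX KD, in each case the second lowest ratio of 20 chromosomes, and both comparisons use the same WT lists. Both lists of a genotype lay below both WT lists on 55.0% of chromosomes in ATRXΔRBR, against 50.0% in ATRX KD, so that such a separation was common in these lists. The ATRX KD lists were also much shorter, with 7241 and 6336 H3K27me3 peaks in all beside 36011 and 38832 in WT and 38651 and 33105 in ATRXΔRBR.

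Chromosomes 9 and 18 were nearer to WT in H3K27me3. Chromosome 9 held 6.28% and 6.05% in WT, 5.86% and 5.91% in ATRXΔRBR, against 5.64% and 5.63% in ATRX KD, with ratios of 0.954 and 0.914. Chromosome 18 held 2.78% and 3.01% in WT, 2.71% and 2.58% in ATRXΔRBR, against 3.13% and 3.11% in ATRX KD, with ratios of 0.913 and 1.08. Neither genotype's lists overlapped the WT lists on these chromosomes, as was common over all chromosomes.

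For EZH2, the ATRX KD lists had 6.73% and 6.27% of peaks on chromosome 5, where WT had 7.83% and 7.62%, a ratio of 0.841. The ratios were 0.923 for chromosome 9 and 1.05 for chromosome 18. Lists in which both ATRX KD shares lay below both WT shares were found for 40.0% of chromosomes. In ATRXΔRBR the EZH2 replicates lay on opposite sides of WT on chromosome 5, at 6.91% and 9.45%, and on chromosome 9, at 5.63% and 6.97% beside 6.24% and 6.20% in WT. The ATRX replicates also parted, with 7.15% and 10.1% on chromosome 5 beside 7.58% and 7.93% in WT, 4.75% and 6.20% on chromosome 9 beside 5.49% and 5.59%, and 2.72% and 4.36% on chromosome 18 beside 3.42% and 3.52%. A difference in ATRX share on these chromosomes was therefore not larger than the spread between replicates.

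**Figure D3:**
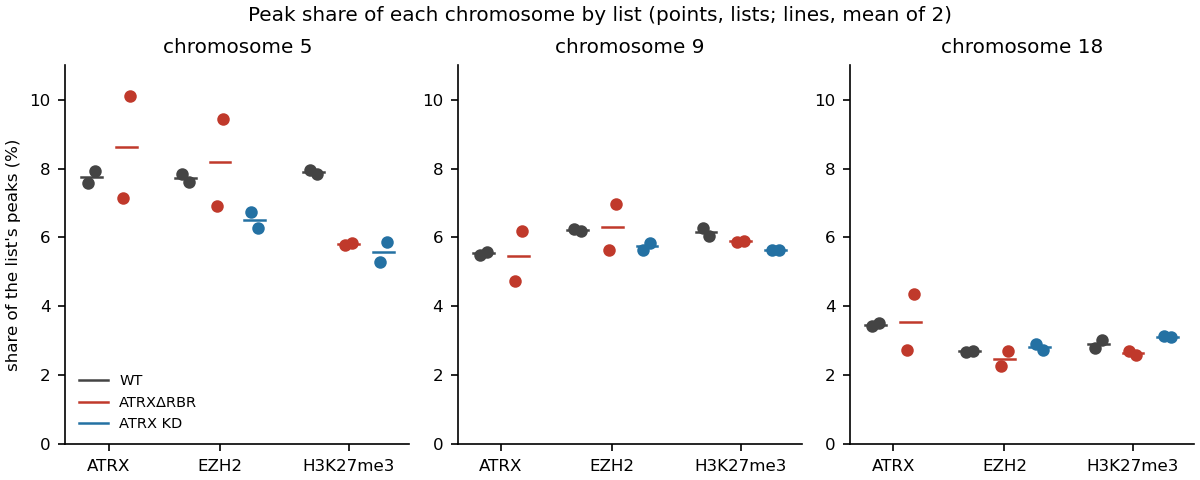
Share of the peaks of each list that lay on chromosomes 5, 9 and 18 (y axis, percent) for ATRX, EZH2 and H3K27me3 (x axis), with a point for each list and a line at the mean of 2. H3K27me3 on chromosome 5 lies at 7.96% and 7.85% in WT and between 5.28% and 5.87% in the other lists, while the ATRXΔRBR lists of ATRX and EZH2 lie far apart from each other.

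Within the chromosomes, H3K27me3 shares differed from WT in both directions between bins. By share, both ATRXΔRBR lists lay below both WT lists in 23 of 31 bins of chromosome 5 and above in 7, where 41.6% of all bins lay below and 39.4% above. Chromosome 9 had 13 of 25 bins below and 11 above, and chromosome 18 had 8 of 19 below and 8 above. In ATRX KD, 20 bins of chromosome 5 lay below and 5 above, beside 33.3% and 42.9% of all bins. Chromosome 9 had 10 below and 9 above, and chromosome 18 had 4 below and 7 above. Almost no bin of chromosomes 5 and 9 overlapped between WT and ATRXΔRBR, namely 1 each.

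The bins named next were chosen after their values were seen, as examples of both directions, and bins that are not named differed as much as some of them. On chromosome 18, the bin from 5 to 10 Mb held 1 and 0 H3K27me3 peaks in WT, 47 and 34 in ATRXΔRBR, against 4 and 2 in ATRX KD. By share, this was 0.00278% and 0% in WT, 0.122% and 0.103% in ATRXΔRBR, against 0.0555% and 0.0317% in ATRX KD. The adjacent bin from 10 to 15 Mb held 7 and 4 peaks in WT, 59 and 47 in ATRXΔRBR, against 9 and 12 in ATRX KD. In the latter bin the shares were 0.0195% and 0.0103% in WT, 0.153% and 0.142% in ATRXΔRBR, against 0.125% and 0.190% in ATRX KD. These 2 bins were almost free of H3K27me3 peaks in WT. Their median expression ratios in ATRXΔRBR were −0.12 and −0.31, and −0.09 and −0.31. The bin from 55 to 60 Mb held 4 and 7 peaks in WT and 36 and 30 in ATRXΔRBR. The bin from 75 to 80 Mb differed in the other direction, with 95 and 111 peaks in WT and 23 and 16 in ATRXΔRBR. In ATRX KD its share was higher, at 0.388% and 0.397% beside 0.264% and 0.286% in WT. The bin from 25 to 30 Mb had 33 and 40 peaks in WT, 4 and 1 in ATRXΔRBR, against 3 and 6 in ATRX KD. By share, the ATRX KD lists overlapped WT there, at 0.0416% and 0.0952% beside 0.0917% and 0.103%.

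On chromosome 5, the bin from 95 to 100 Mb held 130 and 159 H3K27me3 peaks in WT, 38 and 31 in ATRXΔRBR, against 11 and 9 in ATRX KD. The ATRX KD peaks were 0.153% and 0.143% of those lists, beside 0.361% and 0.410% in WT. The 11 expressed genes of this bin, led by Anxa3, Hnrnpd and Prkg2, had a median ratio of −0.12 and −0.21 in ATRXΔRBR. The bin from 60 to 65 Mb held 108 and 122 in WT, 36 and 28 in ATRXΔRBR, against 1 and 3 in ATRX KD, which is 0.0139% and 0.0476% of those lists beside 0.300% and 0.315% in WT. The bin from 80 to 85 Mb, which holds the adhesion receptor gene Adgrl3, had more peaks in ATRXΔRBR, 65 and 54 beside 19 and 24. The first 5 Mb of chromosome 5 had 33 and 24 peaks in ATRXΔRBR beside 6 and 4 in WT, and the bin from 150 to 155 Mb at its end had 21 and 17 beside 5 and 6.

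On chromosome 9, the bin from 30 to 35 Mb, with Aplp2, Ets1 and Kirrel3, held 72 and 76 H3K27me3 peaks in WT and 177 and 158 in ATRXΔRBR. The bin from 85 to 90 Mb held 26 and 39, and 96 and 73, and its median expression in ATRXΔRBR was −0.15 and −0.39. The bin from 45 to 50 Mb held 196 and 180 peaks in WT and 67 and 53 in ATRXΔRBR, and its median expression was −0.20 in both libraries. The bin from 115 to 120 Mb, led by Stt3b and Golga4, held 117 and 118 peaks in WT and 29 and 23 in ATRXΔRBR, and its median expression was −0.33 and −0.31. Of the bins just named with a median, those with more and those with fewer H3K27me3 peaks in ATRXΔRBR both had expression below WT. So did nearly every bin of these chromosomes, which were chosen partly by their expression ratio. The named bins therefore cannot show whether the mark and expression were linked, which was not tested.

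**Figure D4:**
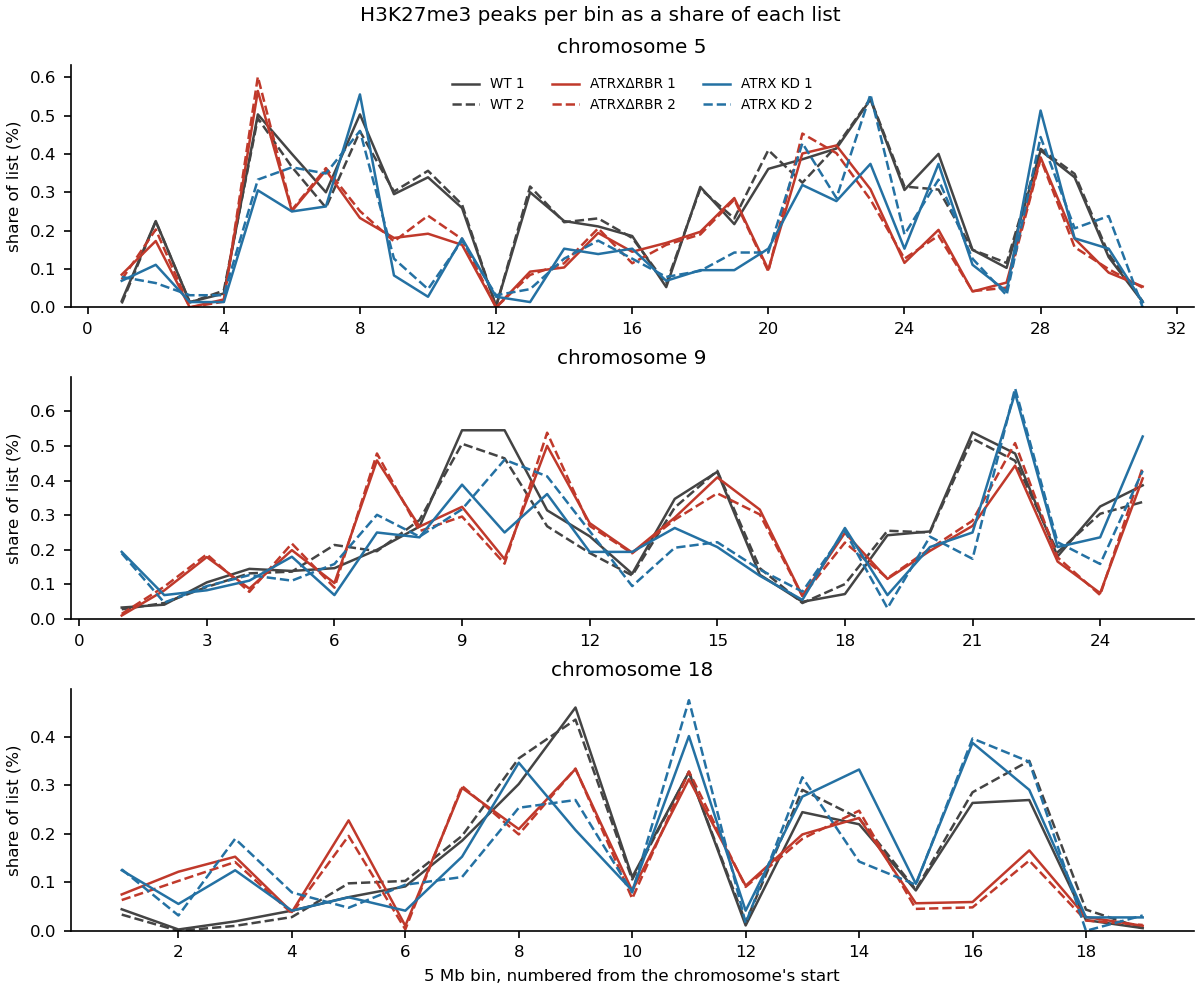
H3K27me3 peaks in each 5 Mb bin as a share of the list (y axis, percent) along chromosomes 5, 9 and 18 (x axis, bin number from the start), with solid lines for replicate 1 and dashed lines for replicate 2. The replicates of WT and of ATRXΔRBR run close together, and the ATRXΔRBR lines leave WT in both directions, for example upward from 0.0195% and 0.0103% to 0.153% and 0.142% in the third bin of chromosome 18.

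The first 5 Mb of chromosome 9 held a larger share of the lists labelled ATRX KD than of the WT lists. They held 14 and 12 H3K27me3 peaks in ATRX KD beside 12 and 11 in WT. These were 0.194% and 0.190% of the ATRX KD lists, which were much shorter, beside 0.0334% and 0.0284% of the WT lists. The ratio of H3K27me3 shares to WT was 6.23, and other bins reached higher, such as 10.6 from 10 to 15 Mb of chromosome 18. EZH2 had the same direction, with 0.245% and 0.199% beside 0.0269% and 0.0327% in WT. Of 11 protein-coding genes of chromosome 9 that acquired H3K27me3 at the TSS in both ATRX KD lists, 9 had their TSS between 3000922 and 3036877, a stretch that is 96.4% repeat-masked in the reference. The placement of reads in such sequence is uncertain. The others were Ccdc13 and Oaf. Oaf, named after its values were seen, had 64.3 and 46.8 CPM in WT and 14.0 and 11.8 in ATRX KD.

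Peaks of the 3 chromosomes also differed from the rest of their lists in features other than the share of peaks. The overlap of ATRX with EZH2 peaks still depends on the number of EZH2 peaks on a chromosome, and so on the shares used in the choice. ATRX peaks of chromosome 5 overlapped an EZH2 peak of the same replicate more often than peaks elsewhere in all 4 lists, with 74.2% and 70.2% in WT beside 65.1% and 62.2% on the other chromosomes, and 78.1% and 51.2% in ATRXΔRBR beside 74.6% and 37.6%. Chromosome 9 also lay above the other chromosomes in all 4 lists, with 66.9% and 66.8% in WT and 75.4% and 49.0% in ATRXΔRBR. On chromosome 18 the overlap was 57.9% and 58.1% in WT, below the other chromosomes, and 70.0% and 38.0% in ATRXΔRBR. ATRX peaks of chromosome 18 also lay at a TSS less often, with 28.3% and 21.6% in WT beside 31.3% and 29.1% elsewhere, and 37.6% and 21.2% in ATRXΔRBR beside 46.9% and 26.0%. These are differences within each list and were not tested.

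H3K27me3 peaks of chromosomes 5 and 9 had a higher GC content than those of the other chromosomes in all 6 lists. On chromosome 5 it was 43.4% and 43.1% in WT beside 42.2% and 42.0%, and 46.2% and 45.8% in ATRX KD beside 43.9% and 43.6%. On chromosome 9 it was 43.3% and 42.9% in WT and 44.4% and 44.2% in ATRX KD. Peaks of chromosome 18 had a lower GC content in all 6, with 41.0% in both WT lists. Single chromosomes other than these were not compared. In WT, 14.6% and 13.9% of H3K27me3 peaks of chromosome 5 lay at a TSS, beside 17.7% and 17.5% elsewhere, whereas in ATRXΔRBR the shares were 16.8% and 17.3% beside 17.7% and 18%. The median width of H3K27me3 peaks on chromosome 5 was 1261 and 1289 bp in WT, 1852 and 1992 bp in ATRXΔRBR, against 768 and 811 bp in ATRX KD. The other chromosomes had 1200 and 1255 bp, 1839 and 1903 bp, and 735 and 741 bp, so that width changed alike there.

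Many H3K27me3 peaks were at other places in ATRXΔRBR. Of the WT peaks of chromosome 5, 52.7% and 60.7% were not overlapped in the ATRXΔRBR list of the same number, beside 45.8% and 54.5% on the other chromosomes. For chromosome 9 these shares were 47.6% and 57.5%, and for chromosome 18 they were 55.0% and 64.6%. Between the WT lists, 19.4% of replicate 1 peaks of chromosome 5 were absent from replicate 2, and 31.6% the other way. Of the ATRXΔRBR peaks, 44.8% and 39.5% on chromosome 5, 51.0% and 46.1% on chromosome 9 and 63.1% and 53.3% on chromosome 18 were absent from WT, beside 59.2% and 52.7% elsewhere. In ATRX KD, 13.4% and 13.2% of the peaks of chromosome 5, 28.0% and 25.1% of chromosome 9 and 37.6% and 31.6% of chromosome 18 were absent from WT, beside 35.3% and 30.7% elsewhere. Peaks absent from WT were thus a smaller share on chromosomes 5 and 9 than elsewhere in all 4 lists, and a larger share on chromosome 18, differences that were not tested. Overlap between genotypes depends on the peak shares by which the chromosomes were chosen, so it is not separate support.

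At promoters, H3K27me3 was acquired in ATRXΔRBR at 47 of 1260 protein-coding genes of chromosome 5 (3.73%), 29 of 1210 of chromosome 9 (2.40%) and 16 of 513 of chromosome 18 (3.12%), beside 3.63% of all protein-coding genes. Acquired means a peak within 2 kb of the TSS in both ATRXΔRBR lists and in neither WT list, and lost means the opposite. It was lost at 62 genes (4.92%), 46 (3.80%) and 33 (6.43%), beside 4.30%. In ATRX KD it was lost at 121, 100 and 46 genes, beside 8.64% of all protein-coding genes, and acquired at 0, 11 and 1, beside 0.328%. The share lost was 9.60% on chromosome 5, 8.26% on chromosome 9 and 8.97% on chromosome 18. EZH2 was lost at 320 promoters of chromosome 5 in ATRX KD (25.4%), 232 of chromosome 9 (19.2%) and 92 of chromosome 18 (17.9%), beside 18.3%. In ATRXΔRBR EZH2 was lost at 11, 13 and 5 promoters, beside 1.19%, and acquired at none. Over all chromosomes, too, it was acquired there at 0 of 21938 protein-coding genes. The EZH2 lists held 22316 and 18351 peaks in WT, 22418 and 11408 in ATRXΔRBR, against 5376 and 7093 in ATRX KD. Short lists leave more promoters to be counted as lost and fewer as acquired. In ATRX KD EZH2 was acquired at 1, 9 and 0 promoters, beside 0.141% of all protein-coding genes. ATRX itself was acquired at 5, 12 and 3 promoters in ATRXΔRBR, beside 0.337%, and lost at 10, 5 and 1, beside 0.424%.

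RNA levels were then tested gene by gene with edgeR's quasi-likelihood test over all genes with more than 10 counts in the 4 libraries of a comparison, with calls at a Benjamini-Hochberg adjusted p under 0.05. Because the chromosomes were chosen with these contrasts in view, the calls describe their genes and are not evidence for the choice. In ATRXΔRBR, 165 of 2475 genes tested on the 3 chromosomes were called (6.67%), 128 lower and 37 higher, beside 6.85% of all genes. Chromosome 5 had 63 lower and 16 higher of 1134, chromosome 9 had 46 and 15 of 929, and chromosome 18 had 19 and 6 of 412. Over all genes 4.07% were called lower and 2.79% higher. In ATRX KD, 808 of 2568 genes were called (31.5%), beside 33.0% of all genes, with 315 lower and 84 higher on chromosome 5, 132 and 140 on chromosome 9 and 68 and 69 on chromosome 18. Over all genes 17.8% were lower and 15.2% higher. The share of genes called was thus near that of the whole genome, and the direction leaned to lower on all 3 chromosomes in ATRXΔRBR and on chromosome 5 in ATRX KD.

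On chromosome 5, the genes with the largest decrease in ATRXΔRBR (up to 4 per direction, chromosome and comparison, by a fixed rule on counts and fold) were Hpse, Steap4, Gnpda2 and Fras1. Hpse encodes heparanase, which cleaves heparan sulfate of the matrix, and fell from 166 and 195 counts in WT to 0 and 1 (edgeR adjusted p = 0.00034). In ATRX KD it had 70 and 194 counts, or 7.63 and 8.98 CPM beside 12.7 and 16.3 in WT. Gnpda2, a glucosamine-6-phosphate deaminase, went from 173 and 233 counts to 3 and 1 (adjusted p = 0.00054). Fras1, a protein of the extracellular matrix at basement membranes, went from 38 and 40 counts to 0 and 1 (adjusted p = 0.0029). Steap4, a metalloreductase, had 26 and 38 counts in WT and 0 in both ATRXΔRBR libraries, at least 20-fold lower with a floor of 3 counts over the group (adjusted p = 0.0058). Hpse and Fras1 kept H3K27me3 at the TSS in both ATRXΔRBR lists, as in both WT lists, while Steap4 had no peak of any kind there.

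The largest increases on chromosome 5 in ATRXΔRBR were in Sgsm1, Spon2, Tmem119 and Htra3. Sgsm1, a modulator of small G protein signalling, rose from 1.45 and 2.09 CPM in WT to 44.9 and 44.2 (log2 fold change 4.66, SE 0.25, edgeR adjusted p = 0.00021). It was at 18.7 and 20.8 CPM in ATRX KD, and its promoter had H3K27me3 in both WT lists, in neither ATRXΔRBR list and in 1 ATRX KD list. Spon2, a secreted matrix protein, stood at 12.7 and 12.3 CPM in WT and rose to 52.4 and 67.8 in ATRXΔRBR (2.28, SE 0.20). In ATRX KD it was at 1.09 and 1.11 CPM, a log2 fold change of −3.50 (SE 0.25). Tmem119 likewise was at 8.79 and 5.93 CPM in WT, 28.2 and 36.0 in ATRXΔRBR, against 1.64 and 1.80 in ATRX KD. Htra3, a secreted serine protease, rose from 6.88 and 5.93 CPM to 25.3 and 28.7 (2.08, SE 0.21). Neither Spon2 nor Htra3 had a peak of ATRX, EZH2 or H3K27me3 at its TSS in any list.

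In ATRX KD, several genes of chromosome 5 had no counts at all. Cacna2d1, an auxiliary subunit of voltage-gated calcium channels, was counted 970 and 1110 times in WT, 230 and 244 in ATRXΔRBR, against 0 in both ATRX KD libraries, at least 856-fold lower. Gnai1, an inhibitory G protein alpha subunit, was counted 243 and 202 times in WT, 13 and 32 in ATRXΔRBR, against 0 in ATRX KD, at least 182-fold lower. Galnt17, a GalNAc transferase, had 158 and 154 in WT, 45 and 58 in ATRXΔRBR, against 0 in ATRX KD, at least 128-fold lower. Sema3a, a secreted guidance cue, had 234 and 268 in WT, 20 and 23 in ATRXΔRBR, against 2 and 0 in ATRX KD. Cacna2d1, Gnai1 and Sema3a lie between 13125414 and 18360355 on the chromosome, in bins with too few expressed genes for a median. Of the increases in ATRX KD besides Sgsm1, Ppargc1a, a coactivator of mitochondrial genes, rose from 4.51 and 4.93 CPM to 36.8 and 35.4 (2.93, SE 0.17), whereas in ATRXΔRBR it was at 0.525 and 0.509. U90926 rose to 6.10 and 4.30 CPM from 1.07 and 0.334, and Rnf32 to 1.96 and 2.68 from 0.459 and 0.25.

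On chromosome 9, the largest decreases in ATRXΔRBR were in Slc35f2, Panx1, Dnaja4 and Pdgfd. Slc35f2, a solute carrier, had 22 and 30 counts in WT and 0 in both ATRXΔRBR libraries, at least 16.2-fold lower (edgeR adjusted p = 0.0074). In ATRX KD it rose, to 5.89 and 8.52 CPM from 1.68 and 2.50 in WT (log2 fold change 1.80, SE 0.33). Panx1, a large-pore membrane channel, was counted 125 and 96 times in WT, 0 and 1 times in ATRXΔRBR, against 82 and 160 times in ATRX KD. Dnaja4, a heat shock co-chaperone, was counted 168 and 161 times in WT, 0 and 2 in ATRXΔRBR, against 303 and 731 in ATRX KD, an increase of 1.34 (SE 0.15) in the latter. Pdgfd, a platelet-derived growth factor, was counted 52 and 49 times in WT, 0 and 1 in ATRXΔRBR, against 7 and 15 in ATRX KD. Slc35f2 and Panx1 had H3K27me3 at the TSS in both WT lists and in neither ATRXΔRBR list, and Slc35f2 had it in neither ATRX KD list, where its RNA was higher.

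The increases on chromosome 9 in ATRXΔRBR were led by Fbxw23, which rose from 1.68 and 1.59 CPM to 21.2 and 24.6 (3.81, SE 0.25) and stood at 26.7 and 23.6 in ATRX KD (3.93, SE 0.21). It is an annotated pseudogene in a cluster of similar Fbxw genes, so the assignment of its reads is uncertain. Acsbg1, an acyl-CoA synthetase, rose from 2.14 and 3.17 to 9.45 and 10.0 CPM (1.88, SE 0.30), and Trim71, an RNA-binding ubiquitin ligase of early development, from 3.97 and 3.09 to 11.4 and 9.66 (1.58, SE 0.27). Col5a3, a chain of type V collagen, rose from 4.89 and 4.17 CPM to 14.0 and 12.6 (1.55, SE 0.24). In ATRX KD, Col5a3 had 0 counts in both libraries, at least 46.5-fold lower than in WT.

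Genes of chromosome 9 without counts in ATRX KD included Rgl3, a regulator of Ral GTPases, with 110 and 120 counts in WT, and Gramd1b, a sterol transfer protein, with 108 and 111. These were at least 94.5-fold and 89.9-fold lower. Rgl3 was also low in ATRXΔRBR, at 2 and 1 counts, while Gramd1b had 75 and 70. Gucy1a2, a subunit of soluble guanylate cyclase, had 0 and 1 counts in WT and 25 and 59 in ATRX KD (edgeR adjusted p = 0.0019). Its promoter had H3K27me3 in both WT lists and in neither ATRX KD list. Fut4, a fucosyltransferase, had 2 counts in each WT library and 25 and 47 in ATRX KD, and Fbxw19, of the same cluster as Fbxw23, had 2 and 0, and 25 in each.

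On chromosome 18, Slc27a6, Zfp521, Pmaip1 and Fbn2 fell most in ATRXΔRBR. Slc27a6, a fatty acid transport protein, had 53 and 57 counts in WT and 0 in the 4 libraries of ATRXΔRBR and ATRX KD, at least 34.2-fold and 45.2-fold lower. Zfp521, a zinc finger transcription factor of progenitor cells, had 31 and 27 counts in WT and also 0 in those 4 libraries, at least 17.9-fold and 23.7-fold lower. Fbn2, which encodes the microfibril protein fibrillin-2, was counted 78 and 83 times in WT, 0 and 1 in ATRXΔRBR, against 0 in ATRX KD. Pmaip1, the p53 target NOXA, was counted 27 and 20 times in WT, 0 in ATRXΔRBR, against 9 and 18 in ATRX KD. Zfp521 and Fbn2 had EZH2 and H3K27me3 at the TSS in both WT lists, and neither ATRXΔRBR list had H3K27me3 there.

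Increases on chromosome 18 in ATRXΔRBR were of lowly expressed genes. Onecut2, a homeodomain transcription factor, rose from 0.688 and 0.417 CPM to 3.99 and 3.2 (log2 fold change 2.67, SE 0.45) and kept H3K27me3 at the TSS in both lists. Cd74, the invariant chain of MHC class II, rose from 0.764 and 1.00 to 5.14 and 4.29 CPM (2.41, SE 0.38). Pcdhgb6 and Pcdhgb7, γ-protocadherins that mediate cell identity in neurons, both rose. Pcdhgb6 had 0.917 and 2.25 CPM in WT and 9.66 and 6.32 in ATRXΔRBR, and Pcdhgb7 had 2.22 and 2.42, and 11.2 and 12.0. Transcripts of this cluster share their last exons, so the assignment of their reads is uncertain.

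Prdm6, a transcriptional regulator of smooth muscle, was counted 69 and 57 times in WT and 18 and 27 in ATRXΔRBR. It had 0 counts in ATRX KD, at least 51.5-fold lower than in WT. EZH2 and H3K27me3 were at its TSS in all lists of those targets. Prelid2 had 0 counts in WT and ATRXΔRBR and 32 and 84 in ATRX KD, at least 30.8-fold higher. Nrg2, a neuregulin growth factor, rose from 1.3 and 1.09 CPM to 5.12 and 5.37 (2.12, SE 0.31), and its promoter had H3K27me3 in both WT lists and neither ATRX KD list. Nme5 had 2 and 3 counts in WT and 17 and 31 in ATRX KD. Megf10, a phagocytic receptor, had 3 counts in each WT library and 11 and 34 in ATRX KD (2.51, SE 0.57), and the call was lost without ATRX KD replicate 2 (2.29).

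**Figure D5:**
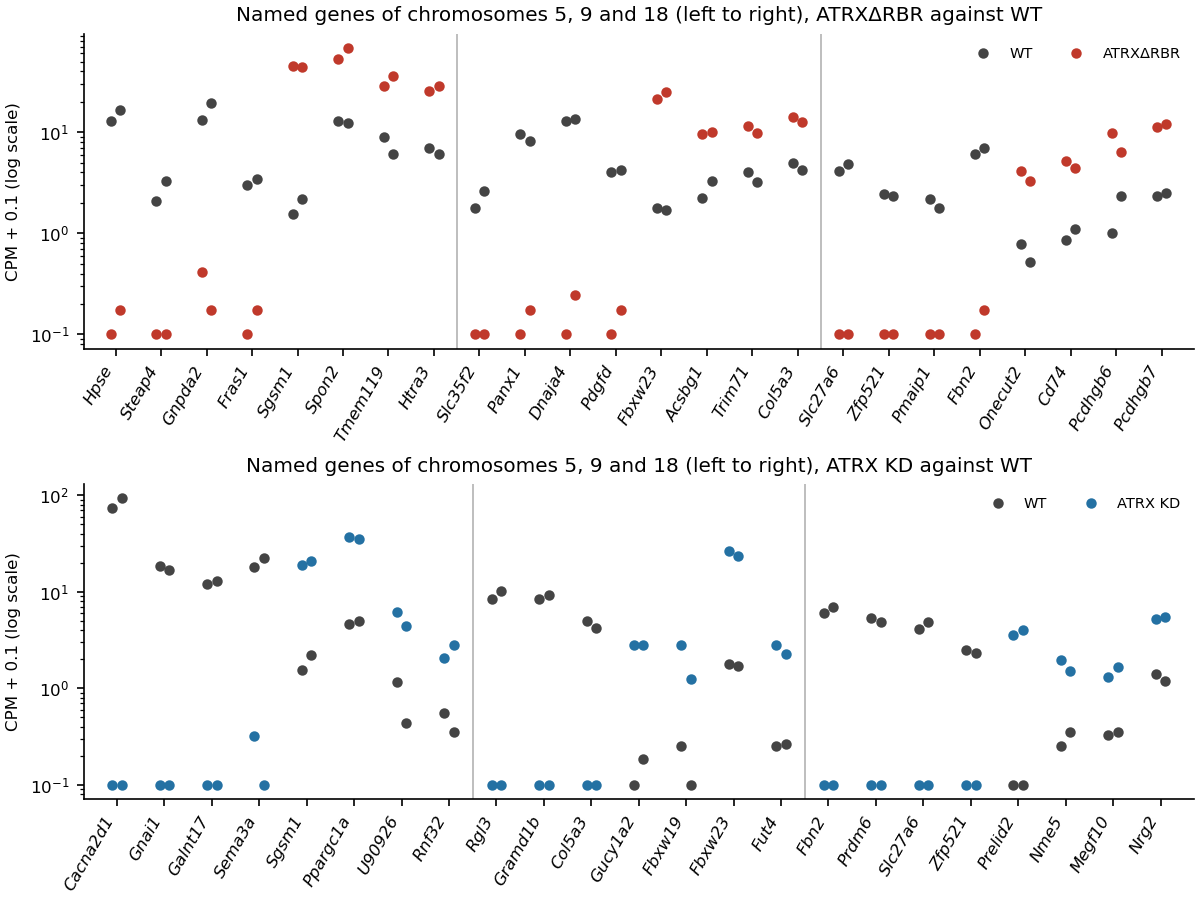
CPM plus 0.1 on a log axis (y axis) of the genes named by the size of their change on chromosomes 5, 9 and 18 (x axis, those reported here, separated by grey lines), for ATRXΔRBR (top) and ATRX KD (bottom) against WT, with a point per library. Points at the bottom are libraries with 0 counts, such as Slc27a6 and Zfp521 in both ATRXΔRBR libraries and Cacna2d1 in both ATRX KD libraries.

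Promoter H3K27me3 and the direction of these extreme genes did not follow a single rule. Of the 12 genes named as lowest in ATRXΔRBR, 6 had H3K27me3 at the TSS in both WT lists, of which Slc35f2, Panx1, Zfp521 and Fbn2 had it in neither ATRXΔRBR list and 2 kept it in both. Of the 12 highest, 4 had it in both WT lists, and Sgsm1 had it in neither ATRXΔRBR list. Of the 12 highest in ATRX KD, 6 had it in both WT lists and 5 of these in neither ATRX KD list. Of the 12 lowest, 5 had it in both WT lists and 2 in neither ATRX KD list. How many of all promoters marked in WT lacked a peak in each genotype was not counted. The ATRX KD lists of H3K27me3 were also much shorter than those of WT.

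Genes at promoters whose H3K27me3 differed in ATRXΔRBR were compared with the calls over all genes tested, of which 4.07% were lower and 2.79% higher in ATRXΔRBR, and with the 128 lower and 37 higher calls on the 3 chromosomes, which lean to lower as well. Of the 47, 29 and 16 promoters that acquired the mark on chromosomes 5, 9 and 18, the genes of 29, 13 and 10 were tested. Those called lower were 3, 3 and 1, and the gene called higher was Paqr3 on chromosome 5. The genes in this and the next paragraphs were named after their values were seen, unless they were described above. Apcdd1, an inhibitor of Wnt signalling, had 8.94 and 10.3 CPM in WT and 1.89 and 1.02 in ATRXΔRBR (edgeR adjusted p = 0.0037), and stood at 17.0 and 17.4 in ATRX KD. Galnt11, a GalNAc transferase, fell from 23.8 and 32.3 to 7.03 and 8.21 CPM, Fndc4 from 32.1 and 33.1 to 7.87 and 9.74, and Chst2, a carbohydrate sulfotransferase, from 34.0 and 23.9 to 8.29 and 10.0. Spa17 fell from 2.68 and 1.09 to 0.105 and 0.0727 CPM. Armc10 lost its call without WT replicate 1 (−0.83), and Elovl4, a fatty acid elongase, lost it without WT replicate 1 (−0.83) or ATRXΔRBR replicate 1 (−0.78). Paqr3 had 7.80 and 10.2 CPM in WT and 25.6 and 18.7 in ATRXΔRBR.

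Of the 62, 46 and 33 promoters that lost H3K27me3 in ATRXΔRBR, the genes of 25, 11 and 9 were tested. Those called lower were 9, 3 and 2 and those called higher 3, 0 and 0, beside 4.07% and 2.79% of all genes tested. Bend4 fell from 8.48 and 10.9 CPM to 0.210 and 0.145, and in ATRX KD it was at 19.2 and 22.3. Nsg1, a neuronal endosomal protein, fell from 68.9 and 65.6 to 12.9 and 10.8 CPM and was at 137 and 138 in ATRX KD. Flt1, the VEGF receptor 1, fell from 11.5 and 10.6 to 4.09 and 3.42 CPM. Igsf9b, an adhesion protein of inhibitory synapses, fell from 14.4 and 13.9 to 2.73 and 1.96 CPM. Prkg2 had 87.1 and 83.8 CPM in WT and 54.2 and 46.7 in ATRXΔRBR, but its call was lost without either WT library (−0.72 and −0.78) and without ATRXΔRBR replicate 2 (−0.64). Besides Sgsm1, the genes called higher were Igfbp7, an insulin-like growth factor binding protein, from 15.9 and 11.1 to 33.8 and 51.4 CPM, and Lrrc8d, a subunit of volume-regulated anion channels, from 8.18 and 8.01 to 20.8 and 20.7.

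In ATRX KD, promoters that lost H3K27me3 had genes called higher and lower on chromosome 5, 12 and 10 of 43 tested, while chromosome 9 had 9 higher and 0 lower of 27 and chromosome 18 had 2 higher and 5 lower of 14. Over all genes tested in ATRX KD, 15.2% were higher and 17.8% lower. On chromosome 9, Scamp5 rose from 4.66 and 5.18 CPM to 24.3 and 27.6, and Isl2, a LIM homeodomain transcription factor, from 0.382 and 0.0835 to 2.51 and 2.08. Of the other 7, Fbxw16, Fbxw19 and Fbxw22 belong to the cluster of similar genes whose reads are uncertain. On chromosome 5, Adam22 rose from 13.5 and 16.7 to 84.4 and 88.6 CPM, whereas Cds1 fell from 16.7 and 15.9 to 3.05 and 5.0. On chromosome 18, Gata6, a transcription factor of endoderm and heart, had 2.06 and 1.5 CPM in WT and 0 in ATRX KD, and Nfatc1 rose from 10.2 and 9.68 to 33.5 and 33.3.

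Gene groups on these chromosomes were described by lists chosen with earlier results of these data known. The median fitted log2 fold change of all genes tested was −0.02 in both comparisons, while that of chromosomes 5, 9 and 18 was −0.22, −0.23 and −0.22 in ATRXΔRBR. In ATRX KD these chromosome medians were −0.29, 0.03 and 0.05. The counts of each list are to be read beside the 4.07% of all genes called lower and 2.79% called higher in ATRXΔRBR. For ATRX KD these shares are 17.8% and 15.2%. Of 26 tested genes for extracellular matrix and growth factors, 6 were lower and 2 higher in ATRXΔRBR, with a median of −0.49. Spp1, which encodes osteopontin, rose from 470 and 503 to 1306 and 1417 CPM (1.49, SE 0.16), and Col12a1, a fibril-associated collagen, from 217 and 351 to 984 and 566 (1.46, SE 0.32). Hbegf, an EGF receptor ligand, fell from 177 and 144 to 33.9 and 45.9 CPM (−1.99, SE 0.22). Loxl1, an elastin crosslinking enzyme, fell from 303 and 245 to 106 and 143 (−1.13, SE 0.21). Fbn2 and Fgf5 were also lower, Fgf5 not without ATRXΔRBR replicate 2 (−3.40).

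In ATRX KD, 12 of 27 of these genes were lower and 7 higher, beside 17.8% and 15.2% of all genes, with a median of −0.44. Spp1 fell to 234 and 240 CPM, Hbegf to 58.5 and 52.5, and Tpm1, a tropomyosin of actin filaments, from 1514 and 1365 to 734 and 785. Cdk6, a kinase of the G1 phase, fell from 104 and 102 to 43.4 and 41.5 CPM. Cdh2, which encodes N-cadherin, rose from 75.5 and 82.6 to 221 and 219 CPM (1.47, SE 0.12), and Col12a1 to 1081 and 1164. Lox, the lysyl oxidase, rose from 1370 and 1348 to 2083 and 1996, but lost its call without either ATRX KD library (0.55 and 0.63).

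The Cxcl chemokine cluster of chromosome 5 was lower in ATRX KD for all 4 members tested, with a median of −2.48. Cxcl1, a neutrophil chemokine, had 134 and 197 CPM in WT, 75.8 and 80.6 in ATRXΔRBR, against 27 and 21.4 in ATRX KD. Cxcl5 had 228 and 223, 156 and 165, and 71.6 and 67.1 CPM in the same order. Ppbp had 56.3 and 65.3 CPM in WT, rose to 115 in both ATRXΔRBR libraries and fell to 3.49 and 3.89 in ATRX KD. In ATRXΔRBR, the fall of Cxcl1 was lost without WT replicate 2 (−0.76) and the rise of Ppbp without WT replicate 1 (0.83). Of the semaphorin genes of chromosome 5, Sema3a and Sema3e were lower in ATRXΔRBR. Sema3e had 6.19 and 8.68 CPM in WT, 1.89 and 1.16 in ATRXΔRBR, against 26.3 and 21.5 in ATRX KD, a rise of 1.67 (SE 0.22) in the latter. Sema3c rose in ATRX KD, from 21.7 and 28.9 to 38.0 and 37.7 CPM, a call lost without either ATRX KD library (0.57 and 0.61).

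Of the interferon-induced Oas and Gbp genes of chromosome 5, none of 4 tested was called in ATRXΔRBR, whereas 1 of 5, Gbp9, was lower in ATRX KD. The matrix metalloproteinase cluster of chromosome 9 had 2 members tested in ATRXΔRBR, against 1 in ATRX KD, and none was called. Of TGF-β and SMAD genes, none of 8 was called in ATRXΔRBR and Smad6, an inhibitory SMAD, was higher in ATRX KD, from 45.1 and 36.1 to 69.7 and 76.5 CPM. Of 9 damage and cell death genes of chromosome 9, Casp12 and Birc3 were lower in ATRXΔRBR and 4 were lower in ATRX KD. Casp12, an inflammatory-type caspase, had 20.9 and 24.2 CPM in WT, 8.19 and 7.12 in ATRXΔRBR, against 4.80 and 4.35 in ATRX KD. Birc3, an inhibitor of apoptosis protein, had 3.06 and 4.17, 0.420 and 0.363, and 0 and 0.139 CPM in the same order.

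Of 33 clustered protocadherins of chromosome 18 tested in ATRXΔRBR, 2 were higher and 1, Pcdhga7, was lower, from 3.59 and 5.01 to 0.210 and 0.581 CPM. In ATRX KD, 8 of 32 were lower and 5 higher, beside 17.8% and 15.2% of all genes. The β-protocadherins Pcdhb16, Pcdhb17, Pcdhb18 and Pcdhb20 were among the lower ones, Pcdhb17 going from 10.7 and 11.5 to 2.40 and 2.08 CPM. Pcdhgc3, the most abundant, rose from 125 and 140 to 360 and 372 CPM (1.46, SE 0.12). Pcdhgc4 had 57.5 and 3.76 CPM in the WT libraries, so that its values rest on which of them is used. Of 14 developmental transcription factors tested, Gata6, Tbx20 and Nkx3-2 were lower and Onecut2 higher in ATRXΔRBR. Nkx3-2, a homeobox gene of the skeleton, had 17.2 and 9.52 CPM in WT and 2.2 and 3.85 in ATRXΔRBR. The call of Gata6 in ATRXΔRBR was lost without WT replicate 1 (−2.09), without ATRXΔRBR replicate 1 (−2.26) and without replicate 2 (−2.44). No desmosomal cadherin of chromosome 18 had enough counts to be tested.

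Cytosolic ribosomal protein genes of the 3 chromosomes were lower in ATRX KD for 12 of 13, with a median of −1.35. Rplp0 had 611 and 479 CPM in WT, 351 and 511 in ATRXΔRBR, against 168 and 183 in ATRX KD. Rpl14 had 298 and 194, 131 and 189, and 38.8 and 47.9 CPM in the same order. In ATRXΔRBR, Rpl9 and Rpl5 were called lower and the median was −0.54. Rpl5 had 168 and 174 CPM in WT and 90.6 and 97.9 in ATRXΔRBR, and its call was lost without either ATRXΔRBR library (−0.80 and −0.89). Rpl9 lost its call without WT replicate 1 (−0.78) and without either ATRXΔRBR library (−0.79 and −0.91). Ribosomal protein genes have many near-identical pseudogenes, so the assignment of their reads is uncertain.

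The genes at the ATRX sites printed above were not called in ATRXΔRBR. Babam2, a subunit of a BRCA1-associated complex, had 57.9 and 54.3 CPM in WT and 43.1 and 57.0 in ATRXΔRBR. Aasdhppt, a phosphopantetheinyl transferase, had 60.6 and 58.9 CPM in WT and 50.7 and 50.9 in ATRXΔRBR, and Kbtbd3 had 3.97 and 3.92, and 4.51 and 3.2. In ATRX KD, Babam2 was at 37.8 and 36.8 CPM (−0.59, SE 0.13) and Aasdhppt at 38.3 and 37.3 (−0.67, SE 0.12), calls that were lost without either ATRX KD library (−0.62 and −0.55, and −0.69 and −0.63).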

How the data were processed

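CUT&RUN was represented by 16 peak lists and RNA-Seq by 6 libraries. Per the labels, reads were mapped to mm10. The authors mapped CUT&RUN reads with Bowtie2 and called broad peaks per library with MACS2. Each deposited list gives, as means over a peak, its fold enrichment (a ratio to MACS2's local background) and −log10 of p and q. The deposited score was not used. The authors aligned RNA-Seq reads with STAR and obtained the deposited estimated counts and TPM with RSEM. TPM was used for levels and in an alternative. Read depth cannot be read from peak lists, so shares were used. The depth of RNA-Seq is given in the report, and intervals and floors cover counting error only.

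Estimated counts were rounded. Genes with more than 10 counts over the 4 libraries of a comparison were fitted with edgeR 4.0.16 (TMM, quasi-likelihood test, R 4.3.3) without covariates, and p-values were adjusted over all genes tested by the Benjamini-Hochberg method. Ratios used CPM plus 0.5. Bins of 5 Mb were counted from 0, with genes and peaks placed by their midpoint. Overlap was counted from 1 bp, and a TSS window was 2 kb on each side. The annotation matched 53620 of 53801 gene identifiers. The analysis used Python 3.11.15, numpy 2.4.6, pandas 2.3.3, pysam 0.24.0 and matplotlib 3.10.9, and scripts for the tests were tested on simulated data.

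The members, gene lists and tests were chosen with earlier results of these data known. Genes named as most changed were up to 4 per chromosome, comparison and direction with the largest fitted fold change among called genes that had a mean of at least 20 counts in the higher group, groups that did not overlap, and a symbol other than a Gm number or Rik clone. List members and the 3 genes with the highest TPM in a bin were also named. Alternatives were DESeq2 1.42.0, other scalings, filters, pseudocounts and bin sizes, a stricter q-value of 0.01, peaks at or away from a TSS, base pairs covered, autosomes only, all 6 libraries in 1 fit, a replicate block and leaving out each library. The main fit did not pair the samples by replicate number. Values of some genes that the naming rule and the lists hold are not reported here.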

Additional observations from a re-analysis of the deposited data

How the results depend on the processing

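The limits are these. Each group had 2 libraries, the deletion was carried by a picked clone, and the depth of the peak lists is unknown. No sequencing run is named for the ATRX KD libraries, so ATRX KD cannot be told apart from a possible difference between runs. Shares of short lists, as in ATRX KD, rest on few peaks per bin.

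In ATRXΔRBR, the genes called on chromosomes 5, 9 and 18 numbered 79, 61 and 25. They numbered 145, 112 and 55 without a filter on low counts, 50, 31 and 14 with at least 10 counts in every library, and 135, 105 and 57 with all 6 libraries in 1 fit. Leaving out each library in turn gave 80 to 112, 55 to 81 and 23 to 35. In ATRX KD the numbers were 399, 272 and 137, and leaving out each library gave 222 to 610, 154 to 490 and 71 to 218, the lowest without ATRX KD replicate 2 and the highest without WT replicate 2. Leaving out ATRX KD replicate 1 gave 239, 168 and 84, and leaving out WT replicate 1 gave 421 on chromosome 9.

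Same-numbered libraries did not deviate together (correlation of deviations from the group means −0.635 for ATRXΔRBR and −0.109 for ATRX KD over 2 pairs). In ATRXΔRBR they deviated in opposite directions, so that each library tended to deviate with the WT library of the other number. The main fit did not model this, and its cause was not tested. With a replicate block, 73, 58 and 24 genes were called in ATRXΔRBR and 400, 290 and 147 in ATRX KD. With the crossed pairing as a block, added after the data were seen, the numbers were 434, 357 and 167, and 456, 331 and 166.

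The median of chromosome 5 in ATRXΔRBR, −0.22, was −0.20 relative to all genes, −0.21 with DESeq2 size factors, −0.17 from TPM, −0.16 with a pseudocount of 5 CPM, −0.24 with a mean of at least 10 CPM, −0.18 with more than 10 counts in total and −0.24 for protein-coding genes, and between −0.23 and −0.21 without each library. That of chromosome 9, −0.23, was −0.17 from TPM and −0.18 with a pseudocount of 5 CPM. In ATRX KD, chromosome 5, −0.29, was −0.27 relative to all genes, −0.07 from TPM, −0.22 with a pseudocount of 5 CPM, −0.22 with more than 10 counts in total and between −0.30 and −0.27 without each library. Chromosome 9, 0.00, was 0.23 from TPM, 0.04 with a mean of at least 10 CPM and between −0.03 and 0.04 without each library, and chromosome 18, 0.08, was 0.28 from TPM, 0.03 with more than 10 counts in total and between 0.07 and 0.13 without each library. The TPM scale moved the median of all genes to 0.19 in ATRX KD and 0.04 in ATRXΔRBR, so part of the TPM values is that shift.

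For EZH2 in ATRX KD, the share ratio of chromosome 5, 0.841, was 0.738 by base pairs covered, 0.907 for peaks at a TSS and 0.797 away from it. That of chromosome 9, 0.923, was 0.957 at the stricter q-value, 0.976 by base pairs, 1.03 at a TSS and 0.706 away from it, and that of chromosome 18, 1.05, was 1.12 by base pairs and 1.11 away from a TSS. For H3K27me3 in ATRXΔRBR, chromosome 5, 0.734, was 0.812 at the stricter q-value, 0.721 over autosomes, 0.855 at a TSS and 0.714 away from it. Chromosome 9, 0.954, was 0.893 at the stricter q-value, 0.800 by base pairs and 0.986 at a TSS, and chromosome 18, 0.913, was 0.790 at a TSS. For H3K27me3 in ATRX KD, chromosome 5, 0.705, was 0.861 at a TSS. Chromosome 9, 0.914, was 0.781 at the stricter q-value, 0.853 by base pairs, 0.878 over autosomes, 1.03 at a TSS and 0.881 away from it, and chromosome 18, 1.08, was 1.23 by base pairs.

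With bins of 10 Mb, the share of bins below all genes in both libraries was 100% on chromosomes 5 and 9 in ATRXΔRBR, and 100%, 23.1% and 0% on chromosomes 5, 9 and 18 in ATRX KD. With bins of 2 Mb it was 78.4% on chromosome 5 and 77.8% on chromosome 18 in ATRXΔRBR.

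Of the 78 genes named or listed here that were called in ATRXΔRBR, 66 kept the call without each library in turn, and in ATRX KD 96 of 128. The sign turned for Pcdhgc4 in ATRXΔRBR without WT replicate 1, where −0.29 became 2.74 (range −2.46 to 2.74 without each library), and for Tcf4 in ATRX KD without WT replicate 1, where −0.20 became 0.20 (range −0.52 to 0.20). The cause of these changes was not tested.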
